A study of Mus musculus with 10 samples.

Results

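The 10 choroid plexus transcripts followed here, each known from the epithelium of that tissue, were read in 10 libraries of microglia: Ttr, Enpp2, Folr1, Kcnj13, Clic6, Prlr, Igfbp2, Slc4a5, Otx2 and Kl. They were chosen by symbol, with earlier results of these data in view, as 10 of the 46152 genes counted, and none was dropped, since each had at least 1 fragment in at least 1 library. The choice was made knowing how these genes behaved between the treatment groups, so their levels under treatment are a description and carry no test. Kl came closest to being dropped, with 9 fragments over all libraries.

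The libraries came from C57BL/6J mice of both sexes, aged 8 to 12 weeks, with no transgene or deletion in either group. In the first group 5 mice received the vehicle, 0.1% Tween 80 with 0.5% Hydroxymethyl Propyl-cellulose, by gavage for 8 days. The other 5 received GW2580, an oral inhibitor of the tyrosine kinase of the CSF1 receptor, at 80 mg per kg per day in the same vehicle. Replicates 1 and 2 of each group were male and replicates 3 to 5 female. Brains were perfused, digested with Accutase, separated on Percoll and selected for CD11b, a surface protein of microglia and other myeloid cells, and each library held 1 mouse. The preparation was thus meant to hold few cells of any epithelium, and these transcripts give a reading of RNA from another brain tissue in it.

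The choroid plexus hangs in the brain ventricles and its epithelium secretes cerebrospinal fluid. Its cells sit on a stroma with leaky vessels, are sealed to one another by claudins, carry cilia on the ventricular side, and move ions, bicarbonate, folate and thyroid hormone between blood and fluid. Ttr encodes transthyretin, a carrier of thyroxine and of retinol with its binding protein. Enpp2 encodes autotaxin, the secreted enzyme that makes lysophosphatidic acid, and Igfbp2 a secreted binder of insulin-like growth factors. Folr1 takes up folate, Slc4a5 carries sodium with bicarbonate, Kcnj13 is an inward rectifier potassium channel, and Clic6 belongs to the chloride intracellular channel family. Prlr is the prolactin receptor, Kl encodes klotho, a co-receptor of FGF23, and Otx2 is a homeodomain transcription factor needed for this epithelium.

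The genes lie on GRCm38 at chr15:54838901-54952789 (Enpp2, minus strand), chr7:101858331-101870788 (Folr1, minus), chr1:87384577-87394729 (Kcnj13, minus), chr16:92498147-92541241 (Clic6, plus), chr15:10177238-10349190 (Prlr, plus), chr1:72824480-72852474 (Igfbp2, plus), chr6:83207580-83304945 (Slc4a5, plus), chr14:48656781-48667644 (Otx2, minus) and chr5:150952607-150993817 (Kl, plus), and Ttr was counted over 1318 exon bases. The counting did not use strand. Kcnj13 lies inside the span of Gigyf2 and shares 1.28% of its exon bases with it, Folr1 shares 4.80% with Gm35597 and Ttr 0.83% with Gm16090, while the other 7 share none.

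Because Otx2 is itself one of the 10 genes, the core motif of its protein, TAATCC on either strand, was counted in the RefSeq promoter windows of GRCm38.p6, which run from 250 bases before to 50 after a start. Windows were given for 6 of the 10 genes (Igfbp2, Kcnj13, Kl, Slc4a5, Otx2 and Prlr). One of the 12 windows of these genes, 8.33%, held the motif, against 7.06% of all 32851 windows. Of the 25 other choroid plexus genes with a window, 3 held it, or 12%, against 8.14% of all 27025 genes. The match lay in one of the 4 windows of Otx2, with its first base at position -211 from the start. That window is shown for the match, and the single window of Kcnj13 beside it as one without; capitals mark the motif as read on the gene's strand.
Otx2, minus strand, chr14:48665060-48665359: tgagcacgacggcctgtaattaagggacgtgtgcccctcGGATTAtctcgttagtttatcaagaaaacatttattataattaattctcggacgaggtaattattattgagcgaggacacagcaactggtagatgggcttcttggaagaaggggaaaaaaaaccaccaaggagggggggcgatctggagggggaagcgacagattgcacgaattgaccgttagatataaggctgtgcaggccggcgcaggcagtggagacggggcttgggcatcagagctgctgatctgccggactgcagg
Kcnj13, minus strand, chr1:87394680-87394979: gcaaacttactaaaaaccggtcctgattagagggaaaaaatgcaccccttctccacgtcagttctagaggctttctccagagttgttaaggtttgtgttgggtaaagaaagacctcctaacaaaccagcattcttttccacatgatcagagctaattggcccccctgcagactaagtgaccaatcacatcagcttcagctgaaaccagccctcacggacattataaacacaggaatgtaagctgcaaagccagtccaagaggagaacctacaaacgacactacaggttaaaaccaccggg
Per window, the share among these genes is close to that of all promoters. Per gene, 1 of the 6 held the motif, or 16.7%, against 8.14% of all genes. Both shares rest on the single match in Otx2, and a match of these letters is not a binding site.

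One library set the picture for all of the transcripts but Kl. The authors' counts put between 12550418 and 26079343 fragments on genes in a library. The 10 transcripts held 6.13% of those fragments in Vehicle 5, and between 0.0956% (GW2580 4) and 0.421% (GW2580 5) in the other 9 libraries. Levels are given below as CPM after TMM scaling, that is, counts scaled to the assigned fragments of each library with edgeR's correction for differences in RNA composition. On that scale, without regard to length, Enpp2 was the highest of all genes in Vehicle 5 and Ttr the second highest. Elsewhere Ttr ranked between 24 and 536 and Enpp2 between 113 and 975 among the 28419 genes that passed the filter on low counts.

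**Figure D1:**
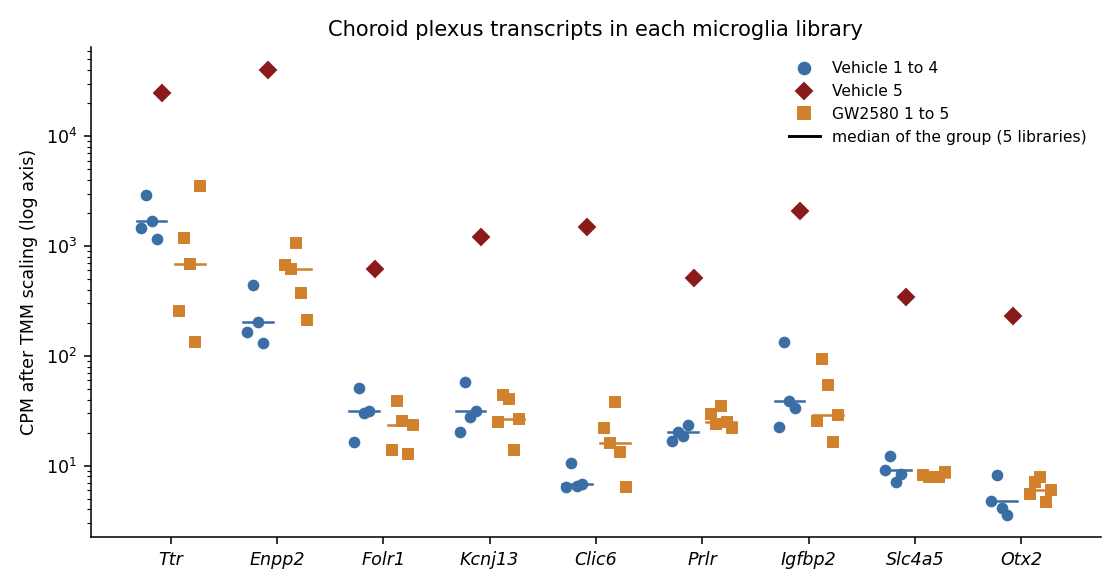
Levels of the 9 choroid plexus transcripts that passed the filter, in CPM after TMM scaling on a log axis, with 1 point for each library and a bar at the median of each group of 5. Vehicle 5, the diamond, is the highest library for each of the 9 genes, while Vehicle 1 to 4 and GW2580 1 to 5 overlap for each gene.

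Ttr, the carrier protein, stood at 1454, 2896, 1697, 1168 and 24921 CPM in Vehicle 1 to 5, and at 259, 1185, 691, 135 and 3497 CPM in GW2580 1 to 5. Vehicle 5 was 21.0 times the median of the other 9 libraries and 7.13 times the next highest, GW2580 5. GW2580 1, 3 and 4 lay below all vehicle libraries and GW2580 5 lay above Vehicle 1 to 4, so the groups overlapped. The mean was 6427 ± 10359 with vehicle and 1153 ± 1374 with GW2580 (SD, n = 5), and the vehicle mean without Vehicle 5 was 1804 ± 760 (SD, n = 4).

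Enpp2, the autotaxin gene, stood at 167, 441, 202, 130 and 40373 CPM in Vehicle 1 to 5, and at 666, 618, 1067, 370 and 214 CPM in GW2580 1 to 5. Vehicle 5 was 109 times the median of the other libraries. Apart from it the order was not that of Ttr: GW2580 1, 2 and 3 lay above Vehicle 1 to 4, and GW2580 5, the second highest library for Ttr, was among the lower ones. The means were 8263 ± 17950 with vehicle and 587 ± 326 with GW2580 (SD, n = 5), and 235 ± 141 over the 4 vehicle libraries without Vehicle 5.

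Igfbp2, the third of the secreted products, read 22.3, 134, 39.0, 33.7 and 2087 CPM in Vehicle 1 to 5, and 25.6, 93.2, 54.1, 16.5 and 28.8 CPM in GW2580 1 to 5. Its level in Vehicle 5 was 61.9 times the median of the others. Vehicle 2 and GW2580 2 followed, both male, and the remaining libraries of the groups were interleaved.

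Among the transporters and channels, Folr1 read 16.6, 51.0, 29.9, 31.5 and 622 CPM in Vehicle 1 to 5, and 14.0, 38.5, 25.7, 12.9 and 23.7 CPM in GW2580 1 to 5. Kcnj13 read 20.2, 57.5, 27.9, 31.3 and 1201 CPM with vehicle, and 25.01, 44.1, 40.9, 13.8 and 26.7 CPM with GW2580, in the same order of replicates. Both genes had Vehicle 5 first and Vehicle 2 second, and GW2580 4 last. Slc4a5, the bicarbonate carrier, was at 9.17, 12.4, 7.18, 8.50 and 347 CPM with vehicle and within 7.83 to 8.73 CPM in all 5 GW2580 libraries. Apart from Vehicle 5, at 42.3 times the median of the others, Slc4a5 was the steadiest of the 9, with an SD of 0.37 CPM over the GW2580 libraries.

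Clic6 and Prlr followed Enpp2 more than Ttr. Clic6 read 6.35, 10.6, 6.60, 6.78 and 1476 CPM in Vehicle 1 to 5, and 22.3, 15.9, 38.1, 13.2 and 6.43 CPM in GW2580 1 to 5. Vehicle 5 was 140 times the median of the others, the largest such ratio among the 9 genes, and GW2580 1 to 4 lay above Vehicle 1 to 4 while GW2580 5 lay among them. Prlr, the receptor, read 16.7, 20.4, 18.5, 23.7 and 509 CPM with vehicle and 29.9, 24.1, 35.1, 24.9 and 22.2 CPM with GW2580, and here too GW2580 1 to 4 lay above Vehicle 1 to 4 and GW2580 5 did not.

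Otx2, the transcription factor, was at 4.76, 8.19, 4.09, 3.56 and 231 CPM in Vehicle 1 to 5, and at 5.49, 7.12, 7.83, 4.69 and 6.03 CPM in GW2580 1 to 5. Vehicle 5 was 42.1 times the median of the others and Vehicle 2 came next. The 5 GW2580 libraries lay within the range of Vehicle 1 to 4.

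Kl was counted at 0, 2, 1, 0 and 3 fragments in Vehicle 1 to 5 and at 0, 0, 0, 1 and 2 fragments in GW2580 1 to 5. It did not pass the filter of more than 1 CPM in at least 3 libraries, and 9 of the 10 transcripts entered the fits. In the 5 libraries at 0, a count of 0 allows up to 3 fragments, or 0.153 to 0.215 CPM, by counting error alone. The 3 fragments in Vehicle 5, 0.169 CPM, do not stand apart from the 2 fragments in Vehicle 2 or GW2580 5, although the other 9 transcripts were at least 21.0 times the median there. In Vehicle 5 Kl was at 1.20 times the next highest library, against 7.13 times or more for the other 9 transcripts. A rise of their size was thus not seen for Kl. With so few fragments a smaller rise could not be told from counting error.

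Divided by gene length, to CPM per kilobase, the order of the medians over the 9 libraries other than Vehicle 5 was Ttr (899), Enpp2 (57.4), Igfbp2 (23.5), Folr1 (15.8), Kcnj13 (9.13), Clic6 (2.82), Prlr (1.67), Slc4a5 (1.33) and Otx2 (0.969). Each of these genes had a range over the 9 libraries that overlapped that of its neighbour in the order. Within a library, Ttr was above Enpp2 in 10 of 10, Igfbp2 above Folr1 in 10 of 10 and Clic6 above Prlr in 10 of 10. Prlr was above Slc4a5 in 7 of 10 libraries, the least kept step of the order. In Vehicle 5 the levels were 18908 per kilobase for Ttr, 6265 for Enpp2 and 1454 for Igfbp2, then 394 for Clic6, 393 for Kcnj13 and 383 for Folr1, and 56.2 for Slc4a5, 40.7 for Otx2 and 35.8 for Prlr. Against the order of the other libraries, Clic6 thus stood above Kcnj13 and Folr1, and Kcnj13 above Folr1, though these lay close together. Prlr stood below Slc4a5 and Otx2, and Ttr still led.

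The comparison the study makes, GW2580 against vehicle, put all 9 genes lower with GW2580 when all 10 libraries were used. The log2 fold changes, with the SE of the edgeR fit, ran from -3.97 ± 1.48 (Clic6) and -3.81 ± 1.49 (Enpp2) through -3.41 ± 1.16 (Igfbp2), -3.24 ± 1.03 (Slc4a5), -3.15 ± 1.06 (Kcnj13), -3.01 ± 1.08 (Otx2) and -2.71 ± 0.90 (Folr1) to -2.48 ± 1.04 (Ttr) and -2.11 ± 0.90 (Prlr). Their median was -3.15, against -0.03 for all genes tested. All 9 passed the thresholds the study used, a fold change over 2 with an unadjusted p under 0.05, as did 10.7% of the 28419 genes tested (6.70% lower with GW2580). Since the genes were chosen on this contrast, nothing is read from that count.

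That all 9 were lower, and by how much, rested on 1 library. Without Vehicle 5, Ttr was at -0.65 ± 0.74 on the log2 scale, Folr1 at -0.49 ± 0.37, Igfbp2 at -0.39 ± 0.55, Slc4a5 at -0.20 ± 0.25 and Kcnj13 at -0.19 ± 0.37. The other 4 turned to higher with GW2580: Otx2 at 0.27 ± 0.31, Prlr at 0.46 ± 0.25, Enpp2 at 1.32 ± 0.51 and Clic6 at 1.34 ± 0.42. The median of the 9 became -0.19, against 0.05 over all genes. Past the study's thresholds were 2 of the 9, Enpp2 and Clic6, both higher. Of the genes tested in that fit 12.9% were called, 6.18% higher with GW2580. Nothing is read from the count of 2 either, since the genes were chosen on this contrast. Leaving out any other single library kept all 9 genes lower. The sign of Slc4a5 without Vehicle 5 depended on the scaling, at 0.05 with library sizes alone, while the other 8 kept theirs under the 3 scalings tried. For none of the 9 genes did the groups of libraries separate, with or without Vehicle 5, while 3.03% of all genes separated with it and 6.96% without it.

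**Figure D2:**
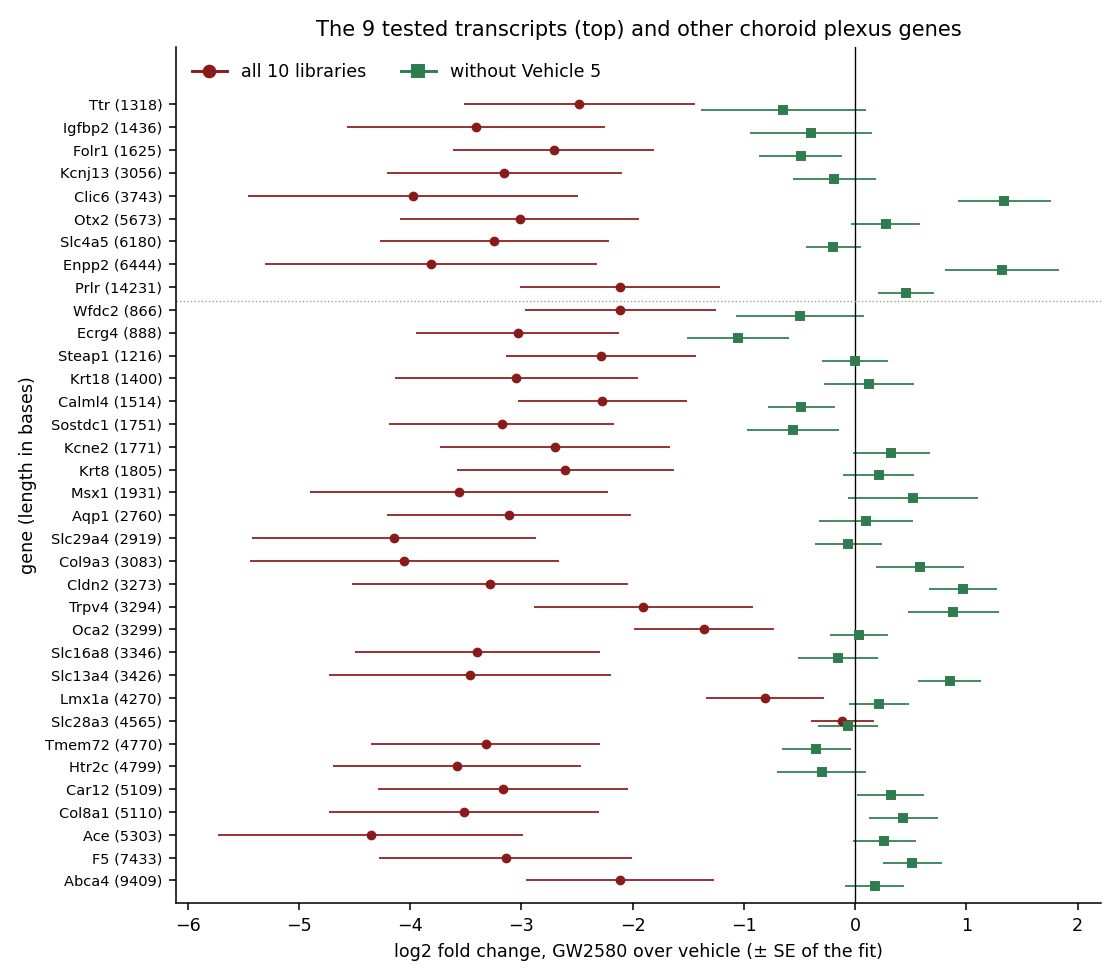
Log2 fold change of GW2580 over vehicle for the 9 tested transcripts above the dotted line and 26 of the 27 other choroid plexus genes below it, each group ordered by gene length, with circles for all 10 libraries, squares without Vehicle 5, and bars of 1 SE of the fit. With all libraries each point lies below 0, and without Vehicle 5 the medians are -0.19 over the 9 transcripts and 0.12 over all 27 other genes.

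The remaining choroid plexus genes were also high in Vehicle 5; this list was likewise drawn up with earlier results of these data known and is no independent check. A list of 28 such genes was matched, and 27 of them passed the filter; Mfrp was listed at 0 in each library, and all of its exon bases lie within those of C1qtnf5. In Vehicle 5, 26 of the 27 were at their highest of the 10 libraries, against 23.0% of all genes tested, the exception being Slc28a3. The ratio of Vehicle 5 to the median of the others was 10 or more for 24 of the 27 genes and for 9 of the 9 transcripts above, but for 2.28% of all genes, and its medians were 42.1 for the list, 42.3 for the 9 transcripts and 0.95 for all genes. Col9a3, a collagen chain, had the highest ratio of the list at 116, followed by Msx1 at 108, Ace, the angiotensin-converting enzyme, at 105 and Slc29a4 at 92.2. Cldn2, the claudin of this epithelium, stood at 366 CPM in Vehicle 5 and between 3.18 and 11.3 CPM elsewhere.

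Under treatment with all 10 libraries, 24 of these 27 genes fell by the study's thresholds and none rose, beside 6.70% and 4.01% of all genes. Among them were Cldn2, Aqp1, Kcne2, Slc13a4, Sostdc1, Wfdc2, Calml4, Tmem72, Car12, Slc29a4, Slc16a8, F5, Col8a1, Col9a3, Msx1, Abca4, Krt8, Krt18, Steap1, Ecrg4, Htr2c, Oca2 and Ace. Ace had the lowest log2 fold change at -4.36, followed by Slc29a4 at -4.15 and Col9a3 at -4.05, and Trpv4, Lmx1a and Slc28a3 did not pass, at -1.90, -0.81 and -0.11. No gene passed at an adjusted p of 0.05 (edgeR quasi-likelihood test, Benjamini-Hochberg over 28419 genes). The smallest adjusted p of the list and of all genes was 0.280, with 4186 genes at an unadjusted p under 0.05; DESeq2 adjusted 177 genes under 0.05 but gave no p for 25 of the 27, nor for any of the 9 transcripts. Without Vehicle 5 the list kept 2 such calls, beside 6.74% of all genes lower. One was Ecrg4, which encodes a secreted peptide precursor, at -1.05 ± 0.46 with an adjusted p of 0.202 (edgeR). Of the 27 genes 16 were then above 0 and 11 below, with a median of 0.12. Cldn2 did not reach the fold, at 0.97 ± 0.31. Its 5 GW2580 libraries (5.21 to 11.3 CPM) all lay above Vehicle 1 to 4 (3.18 to 4.76 CPM), and it was the 1 of the 27 genes that separated, beside 6.96% of all genes.

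**Figure D3:**
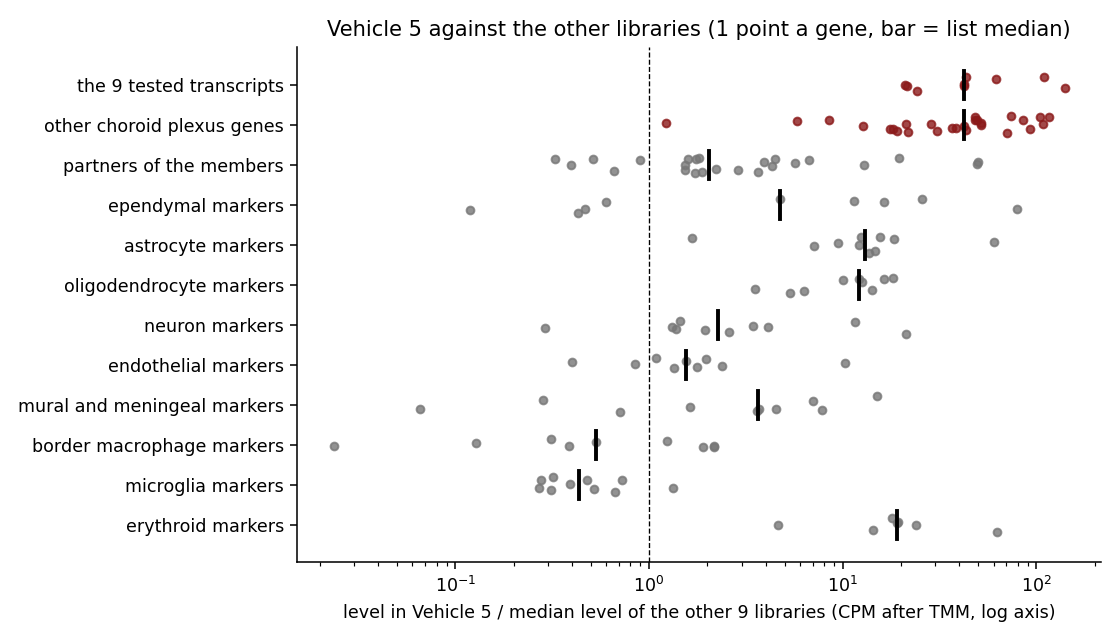
Level in Vehicle 5 divided by the median level of the other 9 libraries, in CPM after TMM scaling on a log axis, with 1 point for each gene that passed the filter and a bar at the median of each list. The 9 tested transcripts and the other choroid plexus genes have medians of 42.3 and 42.1, and the microglia markers one of 0.43.

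A list of 24 partners held genes that act with the 10 transcripts: retinol, thyroid hormone, lysophosphatidic acid and prolactin receptors and signalling genes, folate carriers, insulin-like growth factors and their receptors, and the FGF23 pathway of klotho. The list passed the study's thresholds in 5 of 24 genes, all lower with GW2580, beside 6.70% of all genes lower, and its median log2 fold change was -0.09. Igf2, a growth factor bound by Igfbp2, fell by 3.62 on the log2 scale and was at 766 CPM in Vehicle 5, 49.98 times the median of the other libraries. Stra6, the membrane receptor for retinol-binding protein, was at -3.53 and 49.0 times the median in Vehicle 5. Cish, a target of cytokine receptor signalling, was at -2.16, Fgfr1, the receptor that klotho assists, at -1.72, and Thra, a thyroid hormone receptor, at -1.31. Stra6, Cish and Fgfr1 did not pass without Vehicle 5, when the list had 3 of 24 genes lower, beside 6.74% of all genes, Igf2, Thra and the lysophosphatidic acid receptor gene Lpar2, each between -1.06 and -1.02. The most abundant partners, Lpar6 and the folate carrier Slc46a1, were at 0.00 and 0.29 with all libraries. The partners as a list were thus not all raised in Vehicle 5: their median ratio there was 2.05, with 4 of 24 genes at 10 or more.

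Markers of the other cells the preparation could hold were read in the same libraries. Their calls stand beside 6.70% of all genes lower and 4.01% higher with GW2580, or 6.74% and 6.18% without Vehicle 5, and nothing is read from a list with 1 call. Summed over 10 genes, microglia markers were at 13972 CPM in Vehicle 5, below the 18561 to 62120 CPM of the other 9 libraries, and 9 of the 10 microglia markers were below their median there. Sparc and Tmem119 were among its most abundant genes, and Cx3cr1, at 1.14 on the log2 scale, was the 1 of 10 past the thresholds, with 8 of the 10 above 0. Without Vehicle 5 none of the 10 passed, with Cx3cr1 at 1.10 and 5 of the 10 above 0. Erythroid markers summed to 2144 CPM in Vehicle 5 and to between 43.2 and 396 CPM elsewhere, with Hba-a1 at 818 CPM, and Slc4a1 was the 1 of 7 called, lower with GW2580. Without Vehicle 5 the erythroid list had 6 of 7 genes above 0 and a median of 1.10, and its 1 call was Alas2, higher at 3.20 ± 0.68. Ependymal markers summed to 316 CPM in Vehicle 5 and to 17.0 to 57.5 CPM elsewhere. Within that list Foxj1, the regulator of motile cilia in ependyma and choroid plexus alike, was at 123 CPM, 79.4 times the median, while Ccdc153, a marker of ependymal cells, was at 0.39 CPM, below its median, and Tmem212, Meig1 and Fam183b were below theirs too. Pifo, Rsph1, Dynlrb2 and Mia were above theirs, at 25.7, 16.4, 11.4 and 4.74 times the median, so 4 of the 9 tested markers reached 10 times. Ependymal genes called lower with GW2580 were Foxj1, Ccdc153, Dynlrb2, Pifo and Rsph1. Without Vehicle 5, 4 of the 9 were called, all lower: Foxj1, Ccdc153, Pifo and Meig1. The list then had 8 of 9 genes below 0 and a median of -1.02.

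Astrocyte and oligodendrocyte markers were also above their medians in Vehicle 5, with sums of 1851 and 4382 CPM, but Vehicle 2 held more of both, at 3331 and 17936 CPM. The other 8 libraries lay between 202 and 685 CPM for astrocytes and between 164 and 1784 CPM for oligodendrocytes. The calls in these lists, all lower with GW2580, were Aldoc, Sox9 and Ntsr2 for astrocytes and Mbp, Mobp, Sox10, Olig2 and Cldn11 for oligodendrocytes. Aldoc, Ntsr2, Mbp and Mobp were called without Vehicle 5 as well. Each of these was at its highest in Vehicle 2. In Vehicle 1, 3 and 4 each lay below or among the GW2580 libraries. Mbp, for one, was at 14645 CPM in Vehicle 2, against 152, 35.1 and 102 CPM in Vehicle 1, 3 and 4. Neuron markers (324 CPM in Vehicle 5, 70.9 to 718 CPM elsewhere) had 2 calls, Rbfox3 and Stmn2. Both were lower with GW2580, called without Vehicle 5 as well, and at their highest in Vehicle 2. Mural and meningeal markers (329 against 44.8 to 86.9 CPM) had Col1a1 and Col1a2 called lower. Neither was called without Vehicle 5, with Col1a1 at -0.72 and Col1a2 at 0.33. Border macrophage markers (405 against 197 to 758 CPM) had Mrc1 called higher. Without Vehicle 5 Mrc1 was at 0.92 and not called, while Cd163 and F13a1 were called higher and Ms4a7 and Cbr2 lower. Endothelial markers (165 against 76.4 to 115 CPM) had no call, with Cldn5 listed at 0 throughout. The exon bases counted for Cldn5, 2832, exceed its span of chr16:18776847-18778262, so its 0 is not read as absence. The part of these cell types in the levels of the 9 transcripts was not tested. In bulk libraries, fewer cells of a type and less RNA per cell cannot be told apart.

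Across the 10 libraries the 9 transcripts varied together, with Pearson's r of log2 CPM between 0.53 and 0.99 over their 36 pairs, but this rests on Vehicle 5. Without it r ran from -0.54 to 0.95 over the same pairs, and 8 of the 36 were negative. All values are descriptions over 9 libraries that share scaling and preparation. Folr1, Kcnj13 and Igfbp2 kept to one another, with r of 0.89 for Folr1 with Kcnj13, 0.90 for Folr1 with Igfbp2 and 0.95 for Kcnj13 with Igfbp2. Enpp2, Clic6 and Prlr also kept to one another, at 0.95 for Enpp2 with Clic6, 0.88 for Clic6 with Prlr and 0.76 for Enpp2 with Prlr. Ttr was opposite to this second set, at -0.39 with Enpp2, -0.54 with Clic6 and -0.54 with Prlr, and on the side of the first, at 0.72 with Folr1. The mean of the 9 transcripts had an r of 0.99 with the mean of the other choroid plexus genes over 10 libraries and of 0.97 without Vehicle 5. The microglia markers had an r of -0.46 with the mean of the 9 transcripts over 10 libraries, and of 0.61 without Vehicle 5. The ependymal markers had one of 0.71 over 10 libraries and of 0.27 without Vehicle 5.

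Genes other than the 10 with the pattern most like the mean of the 9 transcripts, out of 14784 genes of at least 5 CPM, were Mxra8, Rdh5, Car14, Krt18 and Epn3, with r between 0.99 and 1.00 over 10 libraries and between 0.82 and 0.95 without Vehicle 5. The genes most like Ttr alone were 2900040C04Rik, Wfdc2, Dhrs11, C230072F16Rik and Cox6b2, with r between 0.97 and 0.99 over 10 libraries, and between 0.95 and 0.99 without Vehicle 5. Krt18 and Wfdc2 are among the 27 other choroid plexus genes, and the 2 sets share no gene. Those like Ttr, itself of 1318 bases, had lengths of 457, 866, 2045, 2139 and 617 bases in the order named, and those like the mean 2324, 1982, 2414, 1400 and 3973 bases, so the lengths of the 2 sets overlapped.

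The contrast between Ttr and Enpp2 was set beside gene length, a measure chosen after the data were seen. Per length, the ratio of Ttr to Enpp2 was 42.6, 32.1, 41.1, 43.8 and 3.02 in Vehicle 1 to 5, and 1.90, 9.38, 3.16, 1.78 and 79.8 in GW2580 1 to 5. Vehicle 5 lay with GW2580 1, 3 and 4, and GW2580 5 above Vehicle 1 to 4, so the ratio did not fully separate the groups. GW2580 1 to 4 (1.78 to 9.38) all lay below Vehicle 1 to 4 (32.1 to 43.8). The share of all assigned fragments on genes under 1500 bases was 30.8%, 29.5%, 28.5%, 28.6% and 12.5% in Vehicle 1 to 5, and 10.96%, 19.6%, 11.5%, 9.93% and 29.9% in GW2580 1 to 5. The 5 libraries with 28.5% or more were those with a ratio of 32.1 or more. Apart from Vehicle 5 and GW2580 5, this share thus split as the treatment groups did. Ttr has 1318 bases and Enpp2 6444, and the part of gene length in the ratio was not tested.

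**Figure D4:**
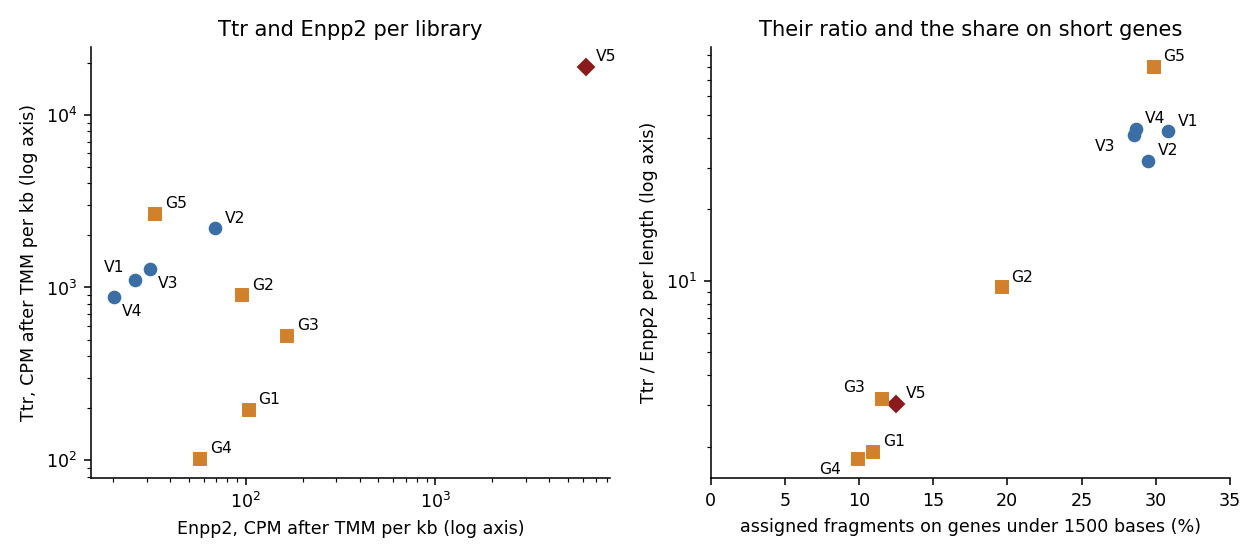
Left, Ttr against Enpp2 in CPM per kilobase on log axes; right, their ratio per length on a log axis against the percentage of assigned fragments on genes under 1500 bases, with circles for Vehicle 1 to 4 (V), the diamond for Vehicle 5 and squares for GW2580 (G). Vehicle 1 to 4 and GW2580 5 lie at 28.5% to 30.8% with ratios of 32.1 to 79.8, and Vehicle 5 lies near GW2580 1, 3 and 4.

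With all 10 libraries, Spearman's rho of the log2 fold change with gene length was -0.07 over the 9 transcripts. It was -0.24 over the 27 other choroid plexus genes and 0.01 over all genes tested. Without Vehicle 5, rho was 0.73 over the 9 transcripts, against 0.37 over the 27 other choroid plexus genes and 0.11 over all 28120 genes. The directions that follow are those without Vehicle 5. Both transcripts under 1500 bases, Ttr and Igfbp2, were below 0, and 3 of the 4 over 5000 bases, Enpp2, Prlr and Otx2, were above it. All 5 of the other choroid plexus genes over 5000 bases (Car12, F5, Col8a1, Abca4 and Ace) were above 0 as well, at 0.18 to 0.52, and all genes of that length had a median of 0.18 against -0.06 for those under 1500 bases. With Ttr and Enpp2 left out, the summed CPM of 5 short choroid plexus genes over that of 8 long ones ran from 0.69 to 2.27 in Vehicle 1 to 4 and from 0.28 to 1.46 with GW2580, and it was 0.74 in Vehicle 5. That ratio did not separate the 5 libraries above from the rest.

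Sex, which the choice of genes did not use, gave no call for the 9 transcripts. In the edgeR fit with treatment the female minus male log2 difference was positive for all 9, from 0.86 (Igfbp2) to 2.20 (Clic6), with unadjusted p of 0.161 to 0.533 and adjusted p of 1.00, beside 1.62% of all genes called at the study's thresholds and 0.0915% at an adjusted p under 0.05. Vehicle 5 is female, and without it the differences ran from -0.96 (Igfbp2) to 0.25 (Ttr), again with 0 of the 9 called beside 2.08% of all genes. An exact permutation test of the sexes within treatment groups, 2-sided over 100 arrangements of 6 female and 4 male libraries, gave p between 0.60 and 0.95 for the 9 genes.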

How the data were processed

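RNA from CD11b+ selected microglia of 10 mice was made into SMART-Seq v4 libraries and sequenced as read pairs. The authors aligned the reads with STAR and counted fragments per gene with featureCounts 1.6.3 over exons of the RefSeq annotation of GRCm38, without strand, and deposited these raw counts with gene lengths and counts of unassigned reads. No other sample column was left out (0). Assigned fragments ranged from 12550418 to 26079343 a library, and intervals and floors cover counting error only.

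Genes with over 1 CPM in at least 3 libraries were kept and fitted with edgeR 4.0.16 (R 4.3.3): TMM factors and a quasi-likelihood test with treatment as the term. The filter, TMM, edgeR, the term and the calls at a fold over 2 and unadjusted p under 0.05 follow the study's methods. Those methods do not name the edgeR test. The study reported fewer genes past these thresholds than the 3046 called here, so the calls are those of this fit. The p-values also had Benjamini-Hochberg adjustment over all genes. A second fit tested sex with treatment. Log2 CPM used a prior count of 2. Alternatives were library sizes alone, DESeq2 1.42.0 and its size factors, no filter, sex, the replicate number as a block, prior counts of 0.5 and 5, and leaving out libraries; scaling without Vehicle 5 was added after the data were seen.

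The 10 genes and all lists were chosen with earlier results of these data known. Named outside the 10 were the 3 most abundant genes of a list or those called, and the 5 genes most correlated with Ttr and with the mean. Other genes were named after their values were seen: the highest Vehicle 5 ratios, those that missed a threshold, calls without Vehicle 5, and Cldn2. Some genes of the lists are counted but not reported here by name. Replicates were separate mice. Sequences came from RefSeq windows of GRCm38.p6. Python 3.11.15 with pandas 2.3.3 and numpy 2.4.6 computed the summaries.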

Additional observations from a re-analysis of the deposited data

Results flagged for a closer look

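Vehicle 5 lay apart from the other vehicle libraries by Dixon's criterion for 5 samples, by its level in CPM after TMM scaling, for each of the 9 tested choroid plexus transcripts: Ttr (24921), Enpp2 (40373), Folr1 (622), Kcnj13 (1201), Clic6 (1476), Prlr (509), Igfbp2 (2087), Slc4a5 (347) and Otx2 (231). It lay apart likewise for the summed CPM of the other choroid plexus genes (10021), their partners (2347), ependymal (316), endothelial (165), mural and meningeal (329) and erythroid (2144) markers. Vehicle 2 lay apart for oligodendrocyte markers (17936). Among GW2580 libraries, GW2580 4 lay apart for oligodendrocyte (1784) and neuron (281) markers and GW2580 3 for border macrophage markers (758). These are 19 of 40 groups examined, 15 of them for Vehicle 5. Chance marks about 1 in 20 independent groups, but the 9 transcripts were chosen with their levels known and the 40 share libraries, so the counts are not read against that rate.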

How the results depend on the processing

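Without Vehicle 5 the calls among the other choroid plexus genes went from 24 to 2, the partners from 5 to 3 and the number of the 9 transcripts lower with GW2580 from 9 to 5; leaving out each library gave 2 to 25, 3 to 6 and 5 to 9 for these, 12 to 30 (20 with all libraries) for the marker lists, with 13 without Vehicle 2 and 12 without GW2580 3, and 1684 (GW2580 1) to 4848 (GW2580 5) of 3046 for all genes. The median log2 fold change of the 9 (-3.15) ran from -3.44 to -0.19; Enpp2 from -4.14 to 1.32, Clic6 from -4.38 to 1.34, Prlr from -2.38 to 0.46 and Otx2 from -3.31 to 0.27. Without Vehicle 2 and 5 the median was 0.45, with 3 of 9 lower, Enpp2 at 1.81, Clic6 1.53, Prlr 0.46, Otx2 0.58, Kcnj13 0.17 and Igfbp2 0.45; 2 other choroid plexus genes, both higher, and 0 partners were called.

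Without Vehicle 5, library sizes alone gave a median of 0.054, 4 of 9 lower, 3 calls among the other choroid plexus genes, Enpp2 at 1.46, Clic6 1.46, Prlr 0.66, Otx2 0.46 and Slc4a5 0.054; DESeq2 size factors gave -0.22, 5 of 9, 2 calls, and 1.28, 1.31, 0.42 and 0.23 for the first 4. Library sizes alone moved the median of all genes from -0.03 to 0.23 and left 3 partners called.

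Replicate numbers did not pair the libraries: correlations of same-numbered libraries ran from -0.39 to 0.13, and no vehicle library was closest to its own number. With the replicate block, the median was -0.89, Enpp2 0.83 and Clic6 0.67; 3 other choroid plexus genes, 1 partner and 7 markers were called. With sex added 8 other choroid plexus genes were called. DESeq2 called 1 choroid plexus gene and 1 partner; it gave no p for 25 of the 27 choroid plexus genes. With no filter 4802 genes were called. Sex fitted alone called 5 of the 9 transcripts, against 0. The treatment difference of the mean log2 CPM of the 9 transcripts was -1.04 with prior counts of 0.5 and 5, as with 2. The cause of these shifts was not tested beyond the libraries left out.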
